A study of Mus musculus with 1 sample.

Results

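Vps8 and 7 genes of the complexes it belongs to were followed across spermatogonia and somatic cells of the prepubertal mouse testis. The 8 genes, Vps8, Tgfbrap1, Vps11, Vps16, Vps18, Vps33a, Vps39 and Vps41, were matched by symbol among 27998 listed genes, of which 18722 had a unique molecular identifier (UMI, which marks 1 captured mRNA molecule). Vps8 had been chosen by its high level in the germ cells of this same library and the other genes for sharing a complex with it, so the difference of Vps8 between germ and somatic cells is given as a description, with no test. The data were the UMI counts of 1 Chromium v2 library of Zscan2+/+ (wild-type) C57BL/6 mice at postnatal day 8, in which cells of 3 mice had been pooled in equal numbers. Testis cells had been enriched with THY1 beads, which favour undifferentiated spermatogonia. Unselected testis cells had then been added back, and the shares of cell types depend on both steps. The library of Zscan2−/− mice was not analysed here.

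VPS8 is a subunit of CORVET, and CORVET and HOPS are tethering complexes that hold membranes of the endosomal system together before they fuse. Both are built on a core of VPS11, VPS16, VPS18 and VPS33A. VPS8 and TGFBRAP1 complete CORVET, which acts with RAB5 on early endosomes, whereas VPS39 and VPS41 complete HOPS, which acts with RAB7 on late endosomes, autophagosomes and lysosomes. Spermatogonia depend on receptors for growth factors made by somatic cells, among them RET and KIT, and such receptors are taken up and sorted through endosomes.

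The library held 970 barcodes of 2655 to 44915 UMIs, and 920 cells were kept. Clusters were named from fixed markers, which gave 324 germ cells with 5555070 UMIs and 596 somatic cells with 5358932 UMIs. All 6 germ cell markers (Ddx4, Dazl, Zbtb16, Sohlh1, Taf4b and Tdrd1) were over 2-fold higher in the germ class, and their summed level there was 1349.9 UMIs per 1000000 UMIs of the class (CPM), against 31.7 CPM in somatic cells. The germ cells fell into a spermatogonial stem cell (SSC)-like class of 112 cells, a differentiating-like class of 133 and a progenitor-like class of 79, the last being the least firm, with 3 of 7 markers 2-fold higher than in the other germ cells. Its top genes were Hba-a1 and Hbb-bs, which encode hemoglobin, followed by the progenitor marker Neurog3. A single barcode among the germ cells had 3604 Hba-a1 UMIs of 12196 in all, with 1 Vps8 UMI, and when it was left out the progenitor-like cluster had Neurog3 first and neither hemoglobin gene among its top 10. The somatic cells comprised 255 Sertoli-like, 186 stromal-like, 94 peritubular myoid-like and 35 macrophage-like cells and an unnamed cluster of 26 cells led by Xcl1. Germ cells were deeper than somatic cells, with a median of 18216 against 8193.5 UMIs. With 1 library there were no replicates, so all intervals below are exact, at a level of 95%, and hold the error of counting alone; cells were not treated as replicates.

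Vps8 lies on the plus strand of chromosome 16, at chr16:21423118-21644680 of GRCm38, a span of 221563 bp with 16 annotated transcripts, 7 of them protein coding. No annotated gene overlaps it on either strand. The window of 300 bases around its start in RefSeq (most of it upstream, GRCm38.p6, chr16:21422868-21423167, plus strand), is shown because Vps8 is the member whose level differed most between cell classes. The capitals mark its 1 match to TGACG on either strand, the core of the site bound by cAMP response factors.

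Vps8: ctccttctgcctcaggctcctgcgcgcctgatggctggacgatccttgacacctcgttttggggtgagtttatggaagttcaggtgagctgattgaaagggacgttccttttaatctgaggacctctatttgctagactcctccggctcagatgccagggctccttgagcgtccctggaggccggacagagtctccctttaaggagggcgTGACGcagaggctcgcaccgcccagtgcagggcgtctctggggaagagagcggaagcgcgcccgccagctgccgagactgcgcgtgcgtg

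Of all 32851 such windows of the table, 20.8% held TGACG on either strand. It did not set Vps8 apart from its partners. Vps18 and Vps33a had 2 matches each, Tgfbrap1 had 2 in each of its 2 windows, Vps16 had 1 and Vps41 had 0. The full palindrome TGACGTCA, present in 1.79% of the windows, was in none of the members' windows. The Vps8 window had a GC content of 61.0%, against a median of 52.7% over all windows, and held 21 CpG dinucleotides.

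Windows were found for 6 of the 8 members. The palindrome CACGTG, the core of the site that the MiT/TFE factors bind in promoters of lysosomal genes, was in 7.15% of all windows. It was present for Tgfbrap1 (in 1 of its 2 windows), Vps16 and Vps33a, and not in the windows of Vps8, Vps18 and Vps41. The longer form TCACGTGA, in 0.974% of all windows, was present for Vps16 and for Vps33a, which held it 2 times. The stretches of 40 bases around these matches are shown to set the partners beside Vps8, with the match in capitals. The second match of Vps33a stands in lower case at the end of its stretch.

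Tgfbrap1, chr1:43092465-43092504, minus strand: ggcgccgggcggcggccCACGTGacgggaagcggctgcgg

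Vps16, chr2:130424285-130424324, plus strand: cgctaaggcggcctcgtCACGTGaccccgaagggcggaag

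Vps33a, chr5:123573021-123573060, minus strand: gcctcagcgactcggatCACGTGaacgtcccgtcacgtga

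A match gives the letters in a window only, and no binding was measured here.

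Vps8 was found at 1949 CPM in germ cells (10827 UMIs, interval 1912.5 to 1986.1) and at 71.8 CPM in somatic cells (385 UMIs, interval 64.8 to 79.4). Its germ level was thus 27.1 times the somatic level (interval 24.5 to 30.1), or 4.76 on the log2 scale. Vps8 alone took 0.195% of all UMIs of the germ cells. At least 1 Vps8 UMI was found in 96.3% of germ cells and 34.4% of somatic cells. After each cell was thinned to 5000 UMIs, which left out 45 germ and 48 somatic cells, the shares were 93.2% and 25.4%.

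The partners did not share this difference. Tgfbrap1, the other subunit particular to CORVET, was at 8.10 CPM in germ cells (45 UMIs) and 12.9 CPM in somatic cells (69 UMIs), a log2 ratio of germ over somatic of -0.67 (interval -1.24 to -0.11) that turned to 0.26 when levels were mean UMIs per cell, a scale on which the deeper germ cells gain 0.93 for every gene. The HOPS subunits had nearly the same level in both groups: Vps39 had 10.4 CPM in germ and 10.8 CPM in somatic cells (58 UMIs in each), and Vps41 had 22.1 CPM in germ (123 UMIs) and 22.2 CPM in somatic cells (119 UMIs). Their log2 ratios had intervals of -0.60 to 0.50 and of -0.38 to 0.37, which leave room for differences up to the bounds. With the mitochondrial limit lowered to 5%, which left 67 germ cells, the ratios were 0.64 for Vps39 and 0.55 for Vps41. In the count split, cells were grouped on one part of the UMIs and measured on the other. There Vps41 was at -0.39 and Tgfbrap1 at -0.099, which is closer to equal levels than its interval above.

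Of the shared core, Vps16 was at 30.2 CPM in germ cells (168 UMIs) and 12.7 CPM in somatic cells (68 UMIs), a ratio of 2.38 (interval 1.79 to 3.21). Vps11 was at 16.9 CPM in germ (94 UMIs) and 10.3 CPM in somatic cells (55 UMIs), a ratio of 1.65 (interval 1.17 to 2.34). Vps18, at 8.10 CPM in germ (45 UMIs) and 9.89 CPM in somatic cells (53 UMIs), and Vps33a, at 12.8 CPM (71 UMIs) and 14.7 CPM (79 UMIs), had intervals that included equal levels. The log2 ratio of Vps33a, -0.21, was 0.46 with the lower mitochondrial limit and -0.79 in cells of at least 10000 UMIs. Part of Vps16 lies opposite Pced1a on the other strand, Tgfbrap1 lies opposite the antisense genes Gm28782 and 8430432A02Rik, and Vps33a contains Gm43133 on its own strand, which is not in the count table. Whether any of their UMIs came from these genes was not tested.

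Past a fold of 2, Vps8 and Vps16 were higher in germ cells and no member was lower, where 24% of the 11027 genes with at least 50 UMIs were higher and 26.7% lower. A change of the size seen for Vps16 was therefore common in this comparison. The median log2 ratio of the 7 partners was -0.05 (range -0.67 to 1.25), beside 0.07 over all genes tested. Vps8 ranked at 242 of the 11027 genes in this ratio.

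**Figure D1:**
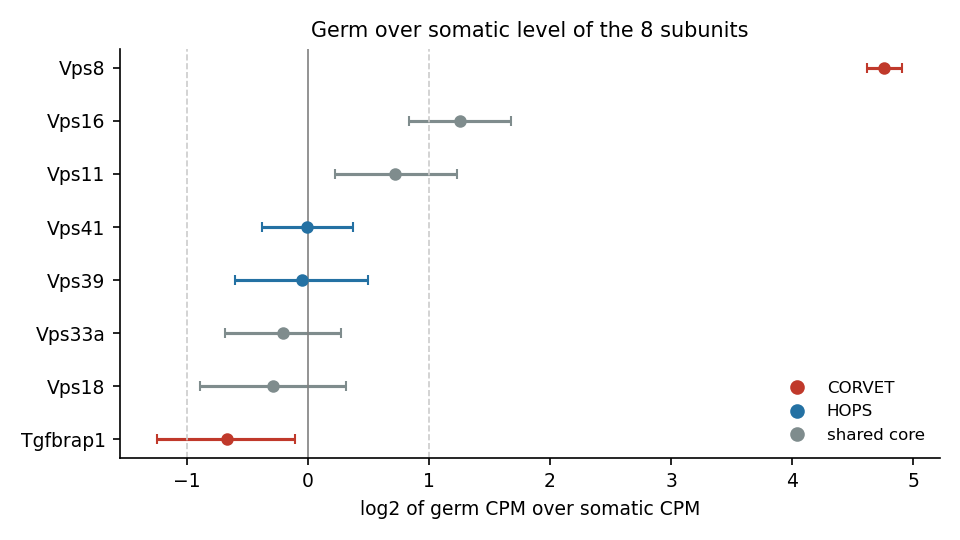
Log2 of the level in germ cells (CPM) over that in somatic cells for the 8 subunits, with exact 95% intervals for counting error as bars and colours for CORVET, HOPS and the shared core; dashed lines mark a fold of 2. Vps8 stands at 4.76 and the 7 partners between -0.67 and 1.25.

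Set against its partners, Vps8 had 17.9 UMIs for each UMI of the 7 partners together in germ cells (interval 16.5 to 19.5) and 0.768 in somatic cells (interval 0.671 to 0.879). UMIs of different genes are caught with different efficiency at their 3′ ends, so these values were compared between cell classes and not read as a ratio of subunits. By stage the ratio was 17.5 for SSC-like, 17.6 for progenitor-like and 18.8 for differentiating-like cells, with overlapping intervals. In somatic classes it was 0.908 for Sertoli-like, 0.982 for stromal-like, 0.868 for peritubular myoid-like and 0.165 for macrophage-like cells (upper bound 0.277 in the last). The partners together had 108.7 CPM in germ and 93.5 CPM in somatic cells, so the Vps8 level carried most of this difference. Of the 16 annotated transcripts of Vps8, 5 end near the end of the gene. Where on Vps8 its UMIs map, and whether that differs between cell classes, was not tested.

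**Figure D2:**
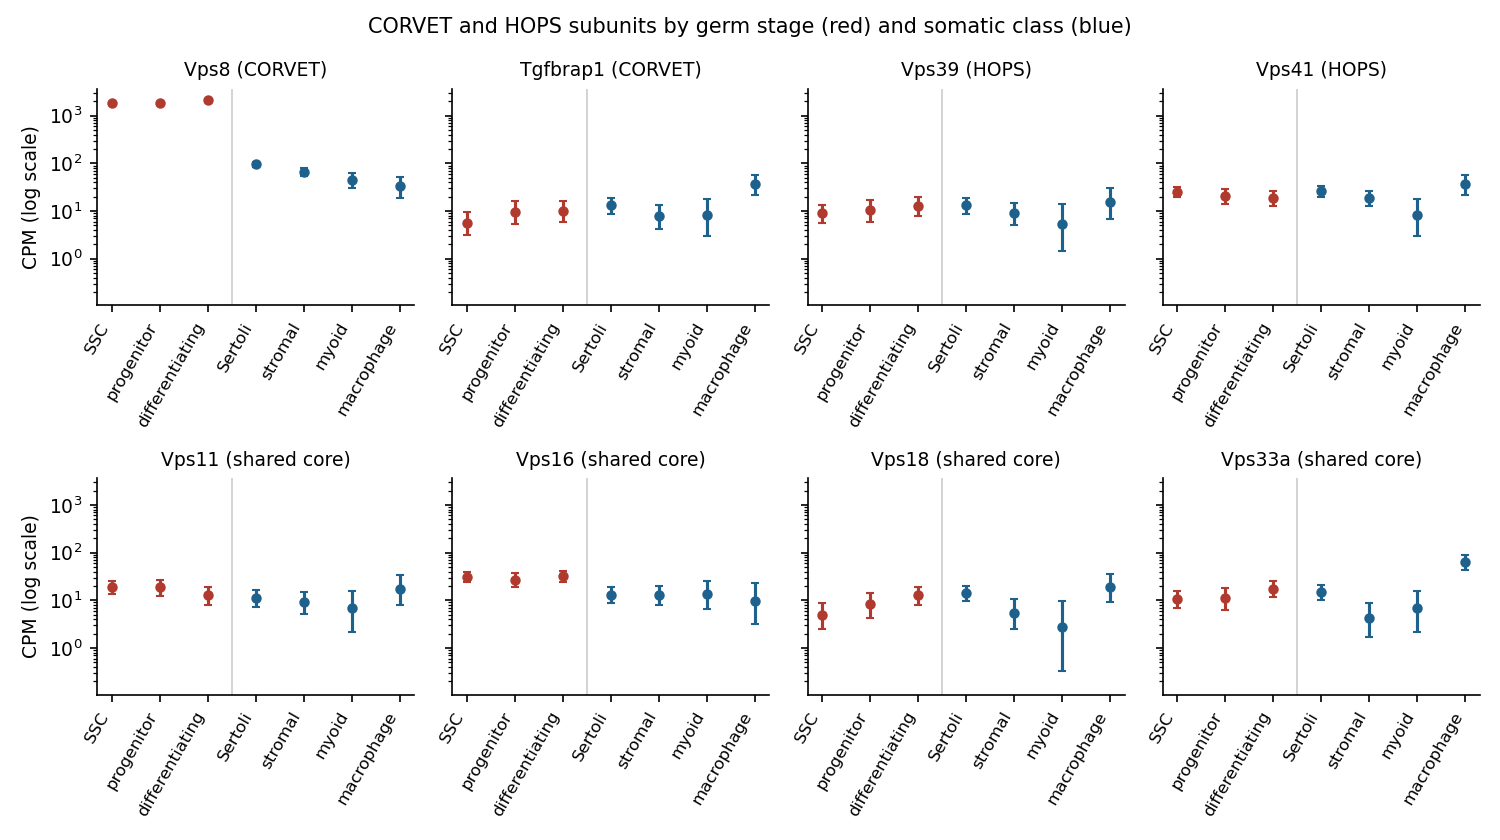
Level of each subunit (CPM, log scale, the same axis in every panel) in 3 germ stages (red) and 4 named somatic classes (blue), with exact 95% intervals for counting error; the unnamed cluster of 26 cells is left out. Vps8 lies between 1846.5 and 2179.5 CPM in the germ stages and between 32.9 and 94.96 CPM in the somatic classes, and the partners lie between 2.70 and 63.9 CPM throughout.

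Across the germ stages, Vps8 stood at 1846.5 CPM for the SSC-like (interval 1793 to 1901.1) and 1857.3 CPM for the progenitor-like cells (interval 1787.7 to 1928.8). The differentiating-like cells stood at 2179.5 CPM (interval 2109.2 to 2251.6). SSC-like and progenitor-like cells did not differ beyond counting error, with a log2 ratio of -0.01 (interval -0.08 to 0.06). Differentiating-like cells were higher than SSC-like cells by this measure, with a log2 ratio of SSC-like over differentiating-like of -0.24 (interval -0.30 to -0.18). The differentiating-like class was made of 2 clusters, one of 101 cells led by Kit at 2288.7 CPM and one of 32 cells led by Prss50 at 1841.5 CPM. Their difference was as large as that between the stages. It turned for the median cell, which had 909.7 CPM in the cluster led by Kit and 1622.1 CPM in that led by Prss50. The order of the stages also turned with the scale: with each cell given equal weight, the mean CPM was higher in SSC-like than in differentiating-like cells, by 0.14 on the log2 scale, and the median SSC-like cell had 1414 CPM, the median progenitor-like cell 1394.9 CPM and the median differentiating-like cell 1121.1 CPM. No stage order was drawn for Vps8.

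Summed over the 7 partners, SSC-like cells held 258 UMIs (105.5 CPM), progenitor-like cells 153 (105.8 CPM) and differentiating-like cells 193 (116.0 CPM). None of the members with at least 50 UMIs in the cells compared passed a fold of 2 between the stages. Between SSC-like and differentiating-like cells, 5 members were tested, where 6.55% of 7315 genes were higher and 5.14% lower in SSC-like cells. Between progenitor-like and differentiating-like cells, 3 members were tested, where 5.57% of 6442 genes were higher and 9.56% lower in progenitor-like cells. Vps18, under that minimum, had 12 UMIs among SSC-like cells (4.91 CPM), 12 among progenitor-like cells (8.30 CPM) and 21 among differentiating-like cells (12.6 CPM), and its interval for SSC-like over differentiating-like was below equality (log2 -2.52 to -0.27).

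Vps16, the scaffold of the core that binds VPS33A, was at 31.1, 27.0 and 31.9 CPM in the stages, from SSC-like to differentiating-like. It stayed between 9.69 and 13.5 CPM in the 4 named somatic classes, so each germ stage lay above each of them, although some intervals of the smaller classes overlapped. Vps11 was at 18.8, 18.7 and 12.6 CPM in the 3 stages in that order, and its stages overlapped with the macrophage-like cells, at 17.4 CPM. For Vps39 and Vps41 the germ stages lay within the range of the somatic classes. Vps33a and Tgfbrap1 had their highest level outside the germ stages, in macrophage-like cells, as did Vps18, though its interval there overlapped with that of differentiating-like cells.

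Among somatic cells, Vps8 was highest in Sertoli-like cells, the nurse cells of the seminiferous tubule, at 94.96 CPM (218 UMIs, interval 82.8 to 108.4). It was at 66.4 CPM in stromal-like (109 UMIs), 44.6 CPM in peritubular myoid-like (33 UMIs), 48.5 CPM in the unnamed cluster (8 UMIs) and 32.9 CPM in macrophage-like cells (17 UMIs, interval 19.2 to 52.7). Sertoli-like cells exceeded stromal-like cells by a ratio of 1.43 (interval 1.13 to 1.82) and peritubular myoid-like cells by 2.13 (interval 1.47 to 3.17). After each cell was thinned to 5000 UMIs, Sertoli-like and stromal-like cells were closer, with 0.460 and 0.424 Vps8 UMIs per cell and a Vps8 UMI in 28.1% and 27.9% of cells. The 3 somatic cells with 10 or more Vps8 UMIs were all Sertoli-like. The log2 ratio of stromal-like over peritubular myoid-like cells was 0.58, with a lower bound of 0.00. The unnamed cluster, which lay between them, overlapped with both, and the intervals of the 3 lowest clusters overlapped.

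Within the Sertoli-like class, the 3 clusters held Vps8 at 66.0 CPM (132 cells), 99.97 CPM (78 cells) and 157.8 CPM (45 cells, interval 123.9 to 198.1). The highest of them, led by Arhgef39, Lockd and Mybl1 and with genes of the cell cycle such as Psrc1, Iqgap3 and Cdc25b among its top 10, was 2.39 times the first (interval 1.71 to 3.34). None of the 7 partners had an interval that left out equality between these 2 clusters. They had only 2 to 14 UMIs each in the highest cluster. The intervals of Vps16, Vps18, Vps33a, Vps39 and Vps41 also included a ratio of 2.39, so a difference like that of Vps8 could not be told from none. Vps8 was among the genes used to form the clusters, so this is a description of them. Cluster 3 was also the deepest of the 3, with a median of 10445 UMIs a cell. A single cell held 17 of its 74 Vps8 UMIs, a spread between cells that the counting interval leaves out.

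A low level in somatic cells can also come from free RNA of the germ cells in the suspension, which all droplets take up. The somatic levels of the 6 germ cell markers were 1.86 to 9.78% of their germ levels (median 2.41%), and Vps8 stood at 3.69% (interval 3.33 to 4.07%). Their sum was 2.35% in all somatic cells (interval 2.01 to 2.73%). By class, Vps8 was at 4.87% in Sertoli-like (interval 4.25 to 5.56%), 3.41% in stromal-like, 2.29% in peritubular myoid-like and 1.69% in macrophage-like cells, while the 6 markers summed were at 2.45% (interval 1.93 to 3.07%), 2.30%, 1.60% and 2.15%. The interval of Vps8 overlapped with that of the summed markers in stromal-like cells (2.80 to 4.11% against 1.71 to 3.03%). It also did so in peritubular myoid-like and macrophage-like cells and in the unnamed cluster. The part of free RNA in the somatic Vps8 UMIs was not tested. In Sertoli-like cells Vps8 was above the sum of the markers, although Taf4b alone was at 13.7% there (12 UMIs) and Tdrd1 at 5.02% (5 UMIs).

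Germ cell markers were set against Vps8 within the somatic cells, and the intervals of the 3 sets overlapped. The 391 somatic cells with no Vps8 UMI had 31.4 CPM of the 6 markers, the 171 cells with 1 or 2 Vps8 UMIs had 32.9 CPM, and the 34 cells with 3 or more had 28.9 CPM (interval 13.8 to 53.1). Dazl, an RNA-binding protein of germ cells, had a UMI in 11.5%, 12.9% and 14.7% of these cells. Across the Sertoli-like clusters, in the order of their Vps8 levels above, the 6 markers stood at 39.6, 18.8 and 38.4 CPM.

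The partners had another order in somatic cells. By CPM, macrophage-like cells, which degrade what they engulf, were the highest of the 7 somatic clusters for Tgfbrap1, Vps11, Vps18, Vps33a, Vps39 and Vps41, and the lowest for Vps8. Vps33a, the SNARE-binding subunit of the core, was at 63.9 CPM there (33 UMIs in 35 cells, interval 44.0 to 89.8), which was 6.73 times the other somatic cells (interval 4.17 to 10.8) and 5.003 times the germ cells (interval 3.21 to 7.66). Tgfbrap1 was at 36.8 CPM (19 UMIs), 3.57 times the other somatic cells (interval 1.99 to 6.16). Vps41 was at 36.8 CPM as well (19 UMIs), and its log2 ratio over the other somatic cells was 0.83 (interval 0.04 to 1.55). Vps18 was at 19.4 CPM (10 UMIs), a log2 ratio of 1.13 (interval -0.03 to 2.14).

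Past a fold of 2 in CPM, Tgfbrap1, Vps18 and Vps33a were higher in macrophage-like than in other somatic cells and Vps8 was lower, where 11.4% of 8764 genes were higher and 33.7% lower. Macrophage-like cells were also deeper, with a median of 13010 against 8074 UMIs in other somatic cells. After each cell was thinned to 5000 UMIs, Vps18 did not stay higher, with 0.0286 UMIs per macrophage-like cell against 0.0409 in other somatic cells. It was then found in only 2.86% of the 35 macrophage-like cells, too few to give a direction. Tgfbrap1 (0.171 against 0.0682) and Vps33a (0.286 against 0.0468) stayed higher, and Vps8 (0.171 against 0.396) stayed lower. The counts of UMIs in macrophage-like cells are small. In Vps18 (10 UMIs), Vps11 (9 UMIs), Vps39 (8 UMIs) and Vps16 (5 UMIs) the intervals included equal levels. In the unnamed cluster, Vps18 and Vps33a had 0 UMIs, which allows a level of up to 18.2 CPM by the limit of 3 UMIs and of 22.4 CPM by the exact interval. Peritubular myoid-like cells had the lowest level of the named classes for the partners together, at 51.3 CPM (38 UMIs), and macrophage-like cells the highest, at 199.6 CPM (103 UMIs).

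From cell to cell, Vps8 varied far more than counting allows. Germ cells had 0 to 198 Vps8 UMIs, with a median of 22 and quartiles of 5 and 51.5. Of the 324 germ cells, 12 had none and 20 had at least 100. In CPM, the germ cells spanned from 80.2 at the 5th percentile to 4506.2 at the 95th. Somatic cells had at most 17 UMIs, and 391 of 596 had none.

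In the 245 germ cells with at least 10000 UMIs, the variance of Vps8 was 22.6 times that of counting error. This was the fourth highest among the 329 genes with at least 2000 UMIs in these cells, after Hba-a1, Hbb-bs and the nuclear RNA Malat1. Dazl, with 3952 UMIs in these cells against 10354 of Vps8, had a variance of 2.30 times counting error and ranked at 159. Its 95th percentile was 3.77 times its 5th, where that of Vps8 was 34.1 times. The partners, with far fewer UMIs, had 0.86 to 1.23 times the variance of counting error. For the same relative spread, this measure grows with the UMIs of a gene. Ranks by it thus depend in part on abundance, and a spread like that of Vps8 would raise the value of a partner far less. Whether the partners spread like Vps8 was not tested. The counting intervals given for Vps8 understate its spread between cells.

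Over the same 245 cells, the Spearman rho of Vps8 CPM with that of the other 328 abundant genes ran from -0.33 (Prdx1) to 0.33 (Nhp2). It was 0.02 for Dazl and -0.01 for Malat1. These genes, named after their values were seen, share the library and the depth of each cell, and none of them followed Vps8 closely.

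**Figure D3:**
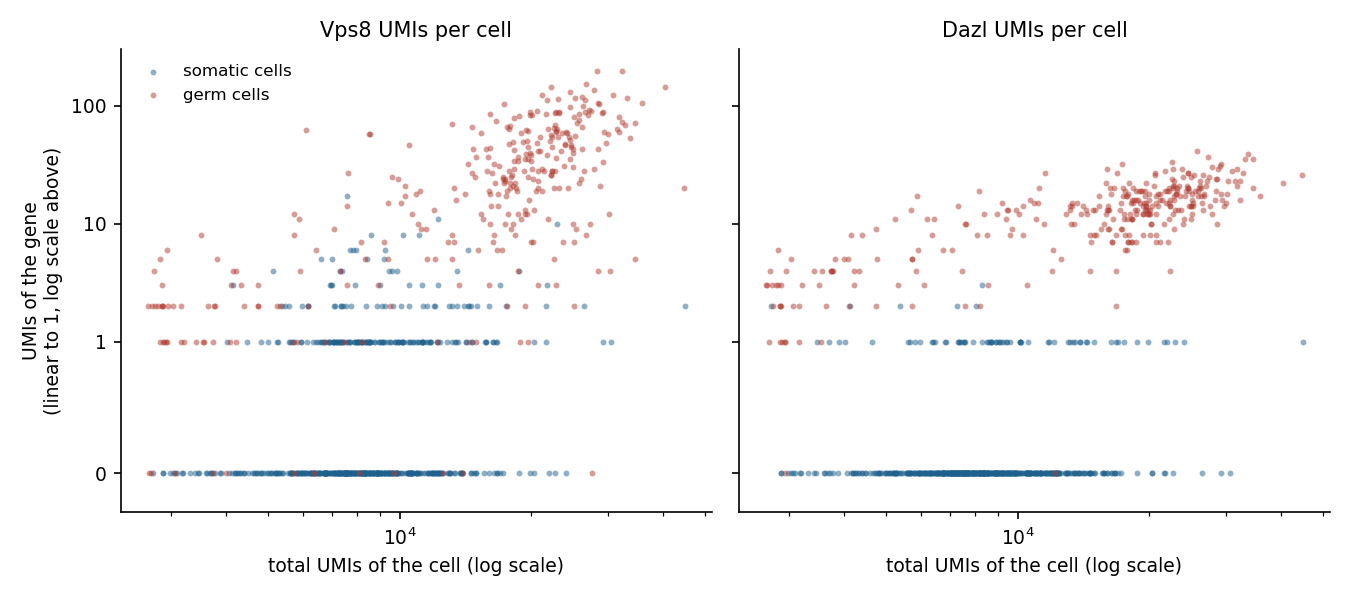
Vps8 UMIs (left) and Dazl UMIs (right) of each kept cell against the total UMIs of the cell, for 324 germ cells (red) and 596 somatic cells (blue); the vertical axis is linear up to 1 and logarithmic above. At a given depth the germ cells spread over a wider range of Vps8 than of Dazl, up to 198 Vps8 UMIs, and somatic cells stay at or below 17.

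The Vps8 level moved with the depth of the germ cells. In 4 equal sets of 81 germ cells ordered by depth, from 2655 to 10287 UMIs per cell up to 22877 to 44777 UMIs per cell, Vps8 was at 1183.3, 1570.2, 1953.5 and 2305.4 CPM, with intervals that did not overlap. The partners together were at 84.4, 103.5, 113.8 and 112.6 CPM, with overlapping intervals, and Dazl went the other way, at 1089.6, 806.4, 754.3 and 753.8 CPM. The median mitochondrial share of UMIs was 3.07% in the shallowest set and 6.86 to 7.13% in the others. Over the 324 germ cells, the Spearman rho of Vps8 CPM was 0.42 with total UMIs and 0.36 with the mitochondrial share.

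When all cells were clustered together, 62 germ cells formed a shallow cluster with a median of 3905 UMIs, 51 of them differentiating-like, 6 progenitor-like and 5 SSC-like. Vps8 was at 545.3 CPM in them (170 UMIs, interval 466.4 to 633.7) and at 2032.5 CPM in the other 262 germ cells, while Dazl was at 1042.5 and 776.6 CPM. The median mitochondrial share was 1.501% in the shallow cluster and 7.1% in the other cells. Even there Vps8 exceeded its level in every somatic cluster, of which the highest was 157.8 CPM. The part of depth and of mitochondrial share in the spread of Vps8 was not tested.

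**Figure D4:**
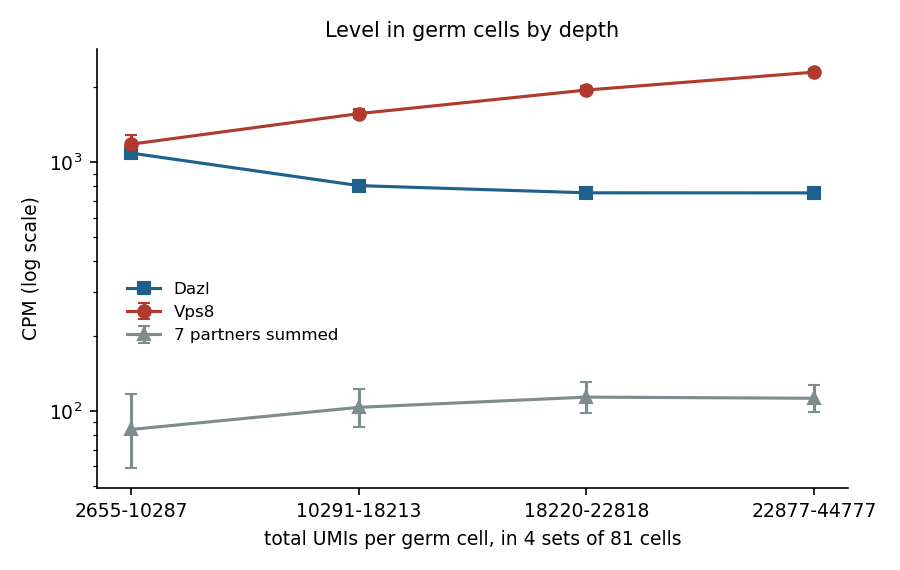
Level (CPM, log scale) of Vps8, Dazl and the 7 partners summed in 4 sets of 81 germ cells ordered by total UMIs; bars are exact 95% counting intervals, not drawn for Dazl. Vps8 goes from 1183.3 to 2305.4 CPM and Dazl from 1089.6 to 753.8 CPM.

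The genes around Vps8 on chromosome 16 did not show its pattern. 2510009E07Rik, on the other strand 4.4 kb beyond its end, had 1 UMI in germ and 61 in somatic cells. Ehhadh, 116.6 kb beyond the end, had 3 in each group, Ephb3, 199.8 kb before the start, had 14 in germ and 12 in somatic cells, and Gm16863, between Ephb3 and Vps8, had 0 in both.

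Over the 4 germ and 7 somatic clusters, the 10 genes whose log2(CPM + 1) was most like that of Vps8 by Pearson r, among 9072 genes with at least 100 UMIs, were Cebpz, Tdrd12, Mier1, Emc8, Bcas2, Gm16222, Ndufb9, Hsp90aa1, Mettl16 and Cacybp, with r from 0.994 down to 0.978. Over these 11 points, which share a library, the germ clusters lie high and the somatic ones low for all of them. Cebpz encodes a transcription factor that binds CCAAT motifs, and was at 322.6 CPM in germ and 80.4 CPM in somatic cells. Tdrd12, a piRNA pathway gene of germ cells, was at 27.0 and 0.560 CPM, and Hsp90aa1, an inducible chaperone abundant in germ cells, at 1707.8 and 318.0 CPM. Among the partners, Vps16 came closest, with an r of 0.93 at rank 276. Vps11 ranked at 3693, Vps39 at 4420, Vps33a at 4697, Vps41 at 5728 and Tgfbrap1 at 6284, the last with an r of -0.23, and Vps18 was under the minimum. With Spearman rho in place of Pearson r, 0 of these 10 genes were again among the first 10.

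The other genes of the pathway, taken from lists by role, were compared between germ and somatic cells in the same way. Of 108 endosome and lysosome genes other than the members, 101 had at least 50 UMIs. Past a fold of 2, 6 of them were higher and 24 lower in germ cells, and their median log2 ratio was -0.20. Over all 11027 genes tested, 24% were higher and 26.7% lower. The share of pathway genes that were lower, 24 of 101, was near that of all genes. The share that were higher, 6 of 101, was well under that of all genes. The list counts that follow are to be read against the shares of all genes.

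The RAB5 module, with which CORVET acts, had 1 of 11 tested genes 2-fold higher in germ cells and 2 lower, with a median log2 ratio of 0.13. Rabgef1, an exchange factor for RAB5, was at 15.8 CPM in germ and 10.3 CPM in somatic cells, and Appl2, a RAB5 effector, was at 7.38 and 37.1 CPM. The RAB7 module, with which HOPS acts, had 1 of 9 tested genes higher and 3 lower, with a median of -0.68. There Tbc1d15, which switches RAB7 off, was at 36.7 CPM in germ and 16.2 CPM in somatic cells, and Osbpl1a, a cholesterol-sensing RAB7 effector, was at 10.3 and 42.4 CPM. Vipas39, the partner of the VPS33A relative VPS33B in the CHEVI complex, was level at 20.5 and 20.3 CPM.

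The enzymes and membrane proteins of the lysosome itself were the list with the lowest median. Of 16 tested genes, 11 were 2-fold lower in germ cells and none higher, with a median log2 ratio of -1.48. Scarb2, the receptor that carries glucocerebrosidase to lysosomes, was lowest, at 1.44 CPM in germ (8 UMIs) and 33.6 CPM in somatic cells (180 UMIs). Mcoln1, a calcium channel of lysosomes, was highest, at 10.98 and 10.1 CPM. The vacuolar ATPase, which acidifies these compartments, had 2 of 12 tested genes lower and none higher, with a median of -0.11. Atp6v0e was at 57.1 CPM in germ and 305.3 CPM in somatic cells, and Atp6v1h was at 41.6 and 23.7 CPM.

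Of the fusion machinery, 2 of 14 SNAREs and SNARE-handling genes were 2-fold lower in germ cells and none higher. Vamp8, a SNARE of late endosomes, was at 20.9 CPM in germ and 222.8 CPM in somatic cells, and Napg, which helps to take SNARE complexes apart, was at 51.5 and 25.8 CPM. Another list held the class III phosphoinositide kinase, which makes the lipid mark of early endosomes, with its subunits, and Pikfyve, Fig4 and Vac14. It had 2 of 8 genes higher and none lower, with a median of 0.55. Among these, Atg14, the subunit that directs the kinase to autophagosomes, was at 46.8 and 12.9 CPM, and Uvrag, a HOPS-interacting subunit of the endosomal form, was at 9.36 and 13.2 CPM.

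The retromer and sorting nexins had 3 of 9 genes lower and none higher. Vps29 was at 170.1 CPM in germ and 94.6 CPM in somatic cells, and Snx2 at 30.2 and 86.6 CPM. Of the ESCRT genes, 2 of 18 tested were higher and 1 was lower. Snf8, an ESCRT-II subunit, was at 418.7 CPM in germ and 119.8 CPM in somatic cells, and Chmp2b, an ESCRT-III subunit, was at 18.0 and 63.4 CPM. Of the MiT/TFE factors, Tfe3 and Tfeb were tested, both within a fold of 2, and Tfe3 was at 21.8 and 35.5 CPM. Among the genes of these lists that reached 50 UMIs, none but Vps8 had a log2 ratio above 2.22. Rin1, under that minimum, had 11 UMIs in germ cells and 1 in somatic cells, a log2 ratio of 3.41 with an interval of 0.63 to 8.84. The somatic level is a sum over 7 clusters in the proportions of this suspension, so it would change with their shares.

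**Figure D5:**
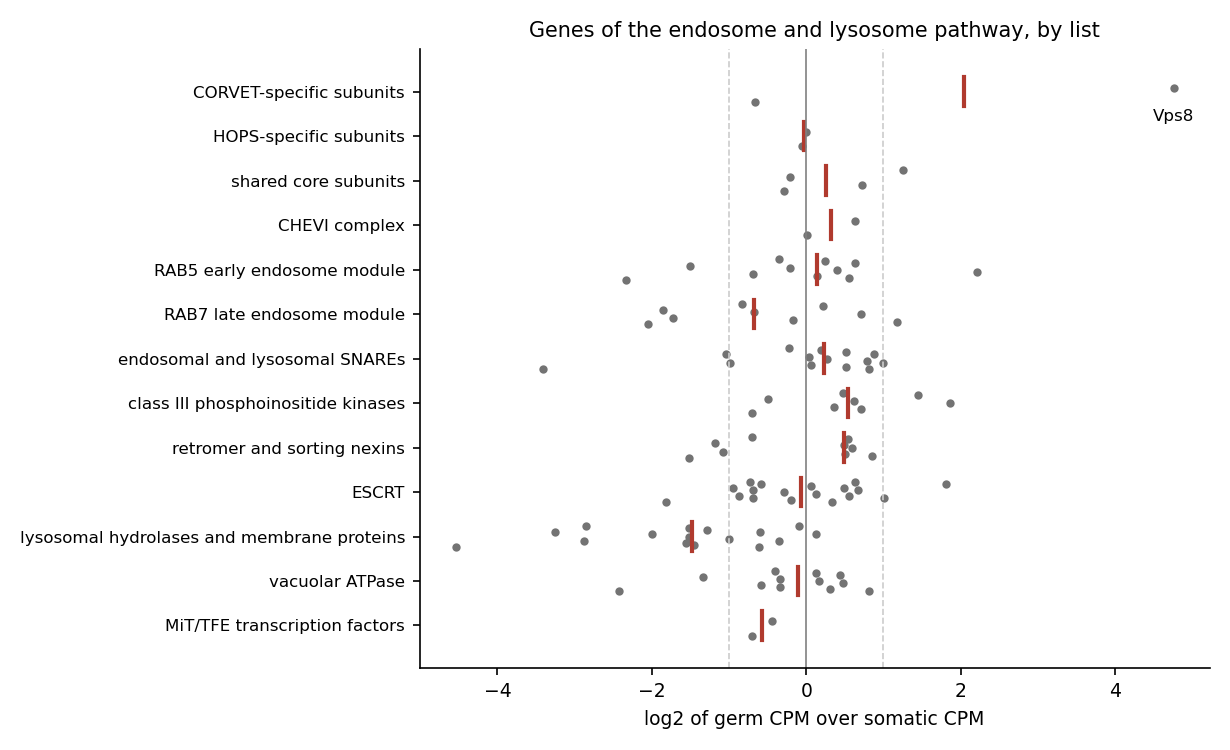
Log2 of germ over somatic level (CPM) for every tested gene of each list (grey points, spread vertically for sight only), with the median of the list as a red bar and a fold of 2 as dashed lines. Vps8 stands apart at 4.76, and the lysosomal hydrolases and membrane proteins have the lowest median, -1.48.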

How the data were processed

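The authors aligned the reads to mm10 with Cell Ranger 2.1.0 and deposited whole-number UMI counts per gene and barcode, not normalized. No annotation of cells was used. Of 970 barcodes, 10 with fewer than 500 genes, 36 at or over 10% mitochondrial UMIs and 4 called doublets by scrublet (scanpy 1.11.5, expected rate 0.01) were removed. With Seurat 5.3.0 in R 4.3.3, clustering used 14 principal components (resolution 0.5) and was repeated on the germ cells alone; clusters were named from the mean log-normalized level of fixed markers, and 1 cluster scored as T cells was left unnamed because its leading genes included those of natural killer cells. Vps8 was among the variable genes, its partners were not.

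Counts were summed per class and given as CPM with exact Poisson intervals. Ratios had exact conditional binomial intervals, shares exact binomial intervals, at 95% and for counting error only. UMI counts carry no error between animals, so no p-values were computed. Genes needed 50 UMIs in the cells compared, and 100 to be named from a list or ranked for likeness. Named were the members, the highest and lowest gene of each list and the 10 genes most like Vps8. Scripts were tested on simulated data. Positions are from GENCODE on GRCm38, the assembly of mm10. The members, lists and comparisons were chosen with earlier results of these data known. Of the alternatives tried, 21 were planned and 2 added after the data were seen.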

Additional observations from a re-analysis of the deposited data

How the results depend on the processing

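Vps8 was higher in germ than in somatic cells under every alternative run, by 4.05 to 5.69 on the log2 scale. The ratio was 4.05 with a mitochondrial limit of 5%, which left 67 germ cells, 4.58 with germ cells taken by a UMI of Ddx4 or Dazl, 5.69 with mean UMIs per cell and 4.56 with the mean over cells of each cell's CPM. Per partner UMI, the log2 ratio of 4.54 became 3.49, 4.27 and, in cells of at least 10000 UMIs, 4.84 under the first, the second and that added alternative. Mean UMIs per cell raises every germ over somatic log2 ratio by 0.93, and so moved the median partner to 0.88 and reversed Tgfbrap1 to 0.26, with all 7 partners then above 0. With a fold of 1.5, 4 members passed, where 68.6% of the 11027 genes tested did. Vps11 was then higher in germ cells besides Vps8 and Vps16, and Tgfbrap1 was lower.

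The stage ratios of Vps8 depended on the setting. SSC-like over differentiating-like reversed to 0.56 with mean UMIs per cell and to 0.14 with the mean of each cell's CPM, and progenitor-like over differentiating-like to 0.32 and 0.12. Mean UMIs per cell raises these ratios by 0.80 and 0.55 for every gene. The reversals on that scale thus hold a shift that is not particular to Vps8. The first ratio was -0.37 with no mitochondrial limit, -0.35 with at least 200 genes, -0.33 with at least 1000 genes and without the hemoglobin-rich barcode, -0.57 with 2000 variable genes by vst, -0.48 with 20 principal components and -0.89 at a resolution of 1.2. The second was -0.067 with no mitochondrial limit and -0.32 in the count split. Thinned to 5000 UMIs, the ratios were -0.13 and -0.091. Under the alternatives chosen after seeing the data, they were -0.42 and -0.41 without the shallow germ cell cluster and -0.43 and -0.43 in cells of at least 10000 UMIs. The causes were not tested. A mitochondrial limit of 5%, a resolution of 0.3 and germ cells taken by a UMI gave no set of stages and so no value. The other values of the results that answer a comparison, 70 in all, stayed within their counting interval or within 1.5 times the main count, and of those for single partners and likeness 126 did and 14 more moved.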
